A study of Mus musculus with 8 samples.

Results

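The genes described here encode collagens, laminins and other proteins of the extracellular matrix, with the enzymes and the chaperone that act on collagen. They were chosen by name, with earlier results of these data known. All collagen chain genes, laminin chain genes, lysyl oxidases (*Lox* and *Loxl*) and lysyl hydroxylases (*Plod*) of the deposited table were taken, together with *Hspg2*, *Nid1*, *Nid2*, *Fn1*, *Sparc* and *Serpinh1*. This gave 69 of the 24385 features of the table. Of these, 32 averaged 1 FPKM or more across the 8 libraries and were tested, among 10018 features in all. FPKM is the number of fragments scaled to transcript length and to the mapped fragments of the library. The 69 genes fell into 11 fibrillar collagens, 22 basement membrane genes, 9 collagen-modifying genes, 2 matricellular genes and 25 other collagens.

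Fibrillar collagens assemble into the fibers that give interstitial matrix its strength. Basement membranes are thin sheets built from laminin trimers and type IV collagen, which nidogens and perlecan join together, and they underlie endothelium and surround muscle cells. Newly made collagen chains are hydroxylated and folded in the endoplasmic reticulum, and lysyl oxidases cross-link them outside the cell. In the early heart tube, matrix lies between the myocardium and the endocardium, and mesenchymal and epicardial cells add fibrillar collagen as the heart grows.

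Hearts were collected at embryonic day 8.5 (E8.5) and E9.5 from mice on a C57BL/6 background. The control embryos, labelled wild type (WT), carried loxP-flanked *Dgcr8* alleles and a Rosa26 mT/mG reporter allele, with no Cre. The conditional knockout (cKO) embryos had the genotype Mesp1Cre/+; Dgcr8-/- in the labels, and per the study's methods Mesp1 Cre/+ with Dgcr8 loxP/loxP and the same reporter. They differ from the controls by the Cre allele as well as by *Dgcr8*. *Mesp1* drives Cre in early mesoderm, so cells of other origin in the heart keep *Dgcr8*. *Dgcr8* encodes a subunit of the complex that cuts primary microRNA (miRNA) transcripts. There were 2 libraries in each of the 4 groups, made from RNA amplified by a Smart-seq protocol.

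The 69 genes together held 739 to 1867 FPKM per library. Features of under 300 bp held 38.6%, 50.5% and 54.5% of the summed FPKM in 3 of the 4 cKO libraries and 18.3% in E9.5 cKO replicate 2, against 15.7% to 22.4% in the WT libraries, so an alternative scaling used the total of the longer features only (long-locus scaling). *Dgcr8* itself had 7.10 and 8.60 FPKM in E8.5 WT against 1.64 and 4.67 FPKM in E8.5 cKO, and 3.49 and 3.23 FPKM against 1.15 and 1.77 FPKM at E9.5. Defining cardiomyocyte genes were abundant in all libraries, with 23569 to 72094 summed FPKM over 8 of 8 genes. The absolute depth was unknown. E8.5 cKO replicate 2 stood apart from all other libraries by its placental and decidual transcripts. Its 8 decidual stroma genes summed to 5174 FPKM, against 36.2 FPKM in the other E8.5 cKO library, 489 and 1186 FPKM in E8.5 WT, and 11.1 to 26.5 FPKM at E9.5. E8.5 WT replicate 1 alone carried uterine natural killer transcripts, with 506 summed FPKM over 8 genes against at most 2.44 FPKM elsewhere. For the 69 genes, counts of called genes and E8.5 class medians that rest on E8.5 cKO replicate 2 are also given without it. Results for single genes and lists outside the 69 are given with it only.

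MiR-29 is widely known as a repressor of collagen transcripts. Its mature sequences are shown because their production depends on *Dgcr8*. The study's list of the most abundant miRNAs in E9.5 hearts held no miR-29 member, and miR-29 levels were not measured here. Capitals mark the seed, bases 2 to 8. The sequences were taken from RefSeq on GRCm38.p6, and the 3 miR-29 members share a seed.
miR-29a-3p: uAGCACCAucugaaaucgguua
miR-29b-3p: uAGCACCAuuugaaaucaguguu
miR-29c-3p: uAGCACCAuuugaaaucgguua

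The letters complementary to this seed were searched on the transcript strand of the longest annotated 3′ UTR of each gene, in GENCODE vM1 transcripts. An annotated 3′ UTR was found for 31 of the 32 tested genes. The miR-29 match TGGTGCT was present in 13 of these 31 (41.9%), and in 14.6% of the 9050 tested features that had a 3′ UTR. It was held by 5 of 6 fibrillar collagens, 5 of 14 basement membrane genes and 2 of 6 collagen-modifying genes. The 3′ UTRs with a match were longer, with a median of 2122 nt against 894 nt over all tested features. A match is a stretch of letters, and its use as a site was not tested. Matches of the genes on which the results below turn are shown with the matched letters in capitals and with the surrounding bases.
Col3a1, bases 235 to 241 of the 3′ UTR: ttcaaaatgtctcaaTGGTGCTataataa
Col1a1, bases 919 to 925: gtgggaaggaatttcTGGTGCTatagaag
Col5a2, bases 1112 to 1118: cttttcttttaatgaTGGTGCTaaaatta
Col4a1, bases 33 to 39: gccaccgtcacaacaTGGTGCTactcccc
Loxl2, bases 1629 to 1635: ccccagctcatggaaTGGTGCTactggtg

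Most of the matrix transcripts in these hearts came from a few genes. The collagen chaperone *Serpinh1* and the collagen-binding glycoprotein *Sparc* were the most abundant, with means of 499 and 259 FPKM over the 8 libraries. *Col18a1*, the precursor of endostatin, followed at 80.0 FPKM, then *Col2a1* at 68.6 FPKM and *Nid2* at 63.7 FPKM. *Fn1*, which encodes fibronectin, had 55.4 FPKM. These levels are per transcript length and can be compared between genes. The remaining 37 genes were below the filter. They included *Lox* itself, 5 fibrillar collagens and the adult glomerular chains *Col4a3* and *Col4a4*. Their highest mean was 0.95 FPKM (*Loxl3*) and their highest value in any library was 1.77 FPKM (*Col9a1*). None of the 69 genes was listed at 0 in all libraries.

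**Figure D1:**
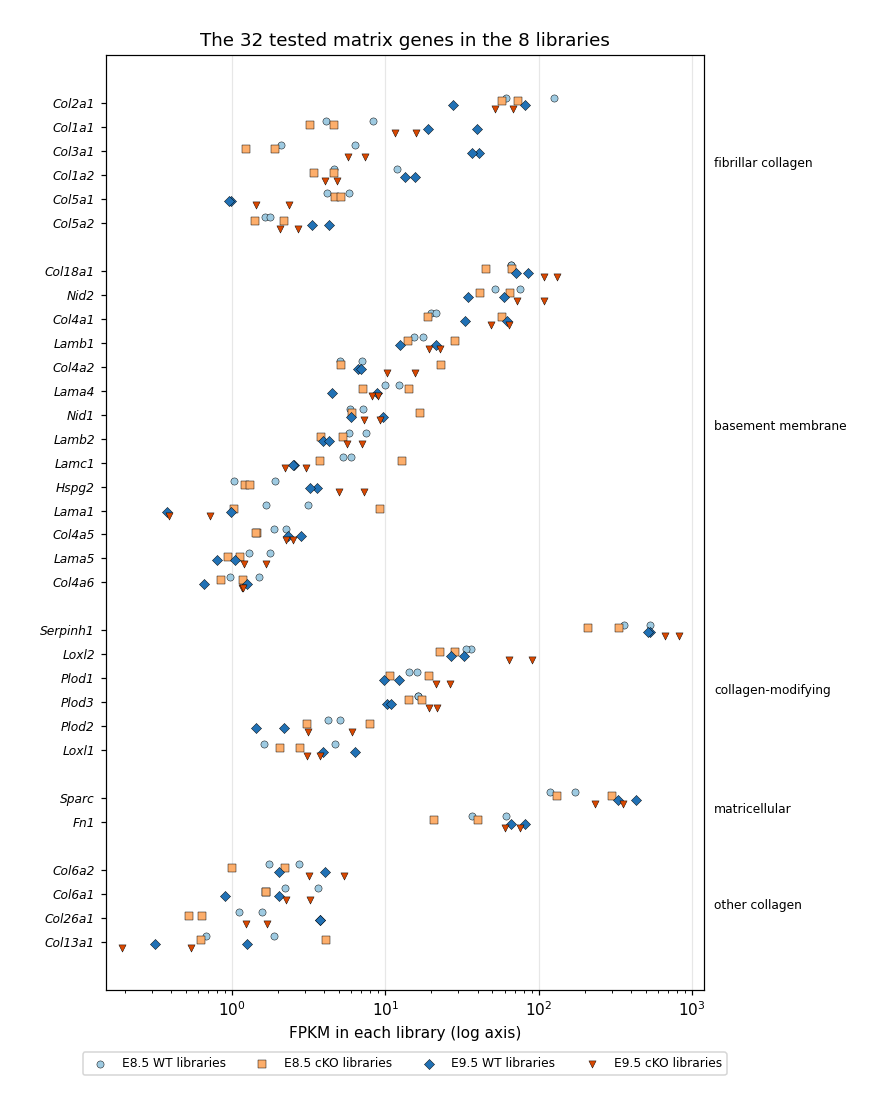
Each row is 1 of the 32 tested genes, grouped by class and ordered by mean level, and each point is the FPKM of 1 library on a log axis, with colours and shapes for the 4 groups. *Col3a1* reached 40.6 and 36.8 FPKM in the E9.5 WT libraries, apart from the 6 other libraries, and *Loxl2* reached 64.0 and 90.4 FPKM in the E9.5 cKO libraries.

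The effect of *Dgcr8* loss was examined at E9.5. Fibrillar collagens were lower in cKO hearts and collagen-modifying genes were higher, as class medians, but no gene of the 32 passed the adjusted threshold. In limma 0 of 32 were called in either direction at an adjusted p below 0.05 and at least a 1.5-fold difference, against 0.17% of all features called higher and 0.00998% called lower. By unadjusted p below 0.05 and the same fold, 5 of 32 (15.6%) were higher, against 5.08% of all features, and 3 of 32 (9.38%) were lower, against 9.99%. The 5 were *Loxl2*, *Plod1*, *Plod3*, *Hspg2* and *Nid2*, and the 3 were *Col3a1*, *Col1a2* and *Col26a1*. Both cKO libraries lay above both WT libraries for 13 of 32 genes (40.6%), against 21.0% of all features. They lay below for 6 of 32 (18.8%), against 31.1%. With median-ratio scaling the unadjusted counts were 10 higher and 3 lower, against 8.67% and 7.42% of all features. With long-locus scaling they were 5 and 3, and with quantile normalization 8 and 3, the higher ones against 7.33%. Leaving out either E8.5 cKO library gave 8 higher (7.18% of all features without replicate 1 and 7.2% without replicate 2), and leaving out E9.5 WT replicate 1 or E9.5 cKO replicate 1 gave 3 (3.99% and 2.25%).

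The type III and type I α2 collagen genes had the largest differences among the 32 at E9.5. *Col3a1* (chromosome 1, 45311537 to 45349706 on GRCm38), the chain of type III collagen, had 40.6 and 36.8 FPKM in WT hearts against 5.70 and 7.34 FPKM in cKO hearts. Its log2 difference was -2.41 (SE 0.40, limma adjusted p 0.0796). The groups did not overlap, and the WT mean of 38.7 ± 2.69 FPKM stood far above the cKO mean of 6.52 ± 1.16 FPKM (SD, n = 2). When either E8.5 WT library was left out of the model, *Col3a1* was called lower, with an adjusted p as low as 0.0474. Over all 17 alternatives its adjusted p ranged up to 0.657.

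*Col1a2* (chromosome 6, 4505696 to 4541543), the α2 chain of type I collagen, had 15.5 and 13.5 FPKM in WT hearts against 4.04 and 4.82 FPKM in cKO hearts. Its log2 difference was -1.52 (SE 0.38, limma adjusted p 0.136). *Col1a1*, the α1 chain of the same trimer, had 19.0 and 39.96 FPKM in WT hearts against 11.5 and 15.9 FPKM in cKO hearts. The WT libraries differed from each other more than the lower of them did from the cKO libraries. *Col1a1* had a log2 difference of -0.98 (SE 0.43, adjusted p 0.324). *Col5a2*, a type V chain, had 4.31 and 3.34 FPKM in WT hearts against 2.07 and 2.69 FPKM in cKO hearts. Summed over *Col1a1*, *Col1a2* and *Col3a1*, the libraries held 75.2 and 90.3 FPKM in WT hearts against 21.3 and 28.1 FPKM in cKO hearts.

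The other fibrillar collagens did not share this direction. *Col5a1*, which encodes the chain that pairs with *Col5a2*, had 0.99 and 0.96 FPKM in WT hearts against 2.34 and 1.44 FPKM in cKO hearts. *Col2a1*, best known from cartilage, overlapped between the groups and changed direction without E9.5 WT replicate 1, with 27.8 and 81.5 FPKM in WT hearts against 68.5 and 52.3 FPKM in cKO hearts. The median log2 difference of the 6 fibrillar genes was -0.74, against -0.07 for all tested features. With a stricter filter of 5 FPKM the class median relative to all features was -1.08 in place of -0.67, and without a filter it was -0.08 over 11 genes. Without E9.5 cKO replicate 1 it was -0.43.

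Collagen-modifying genes lay on the other side. *Loxl2* (chromosome 14, 69609475 to 69695834), a lysyl oxidase that cross-links collagen, had 27.1 and 32.7 FPKM in WT hearts against 64.0 and 90.4 FPKM in cKO hearts. Its log2 difference was 1.33 (SE 0.28, limma adjusted p 0.112). The WT values lay close together and well below both cKO values. *Plod1* (chromosome 4, 147909752 to 147936776), a lysyl hydroxylase, had 9.89 and 12.3 FPKM in WT hearts against 26.4 and 21.4 FPKM in cKO hearts, a log2 difference of 1.04 (SE 0.32, adjusted p 0.178). *Plod3*, which also adds sugars to hydroxylysine, had 10.2 and 10.95 FPKM in WT hearts against 21.9 and 19.2 FPKM in cKO hearts, a log2 difference of 0.89 (SE 0.24, adjusted p 0.143). For both genes the replicates of a group were closer to each other than to the other group. *Plod3* shares 942 bp with *Znhit1*, and the end of *Nid2* shares 387 bp with another gene, so reads of these stretches are of uncertain origin.

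*Plod2*, the hydroxylase of the collagen telopeptides, had 1.43 and 2.20 FPKM in WT hearts against 6.10 and 3.12 FPKM in cKO hearts. *Serpinh1*, the chaperone of procollagen, had 536 and 518 FPKM in WT hearts against 667 and 830 FPKM in cKO hearts (log2 difference 0.50, SE 0.32, limma adjusted p 0.515). *Loxl1* was the exception, with 6.37 and 3.93 FPKM in WT hearts against 3.76 and 3.10 FPKM in cKO hearts. The class thus had 5 of 6 genes with both cKO libraries above both WT libraries, against 21.0% of all features. Its median log2 difference was 0.92, which is 0.99 above that of all features as deposited and 0.50 without a filter on low values.

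**Figure D2:**
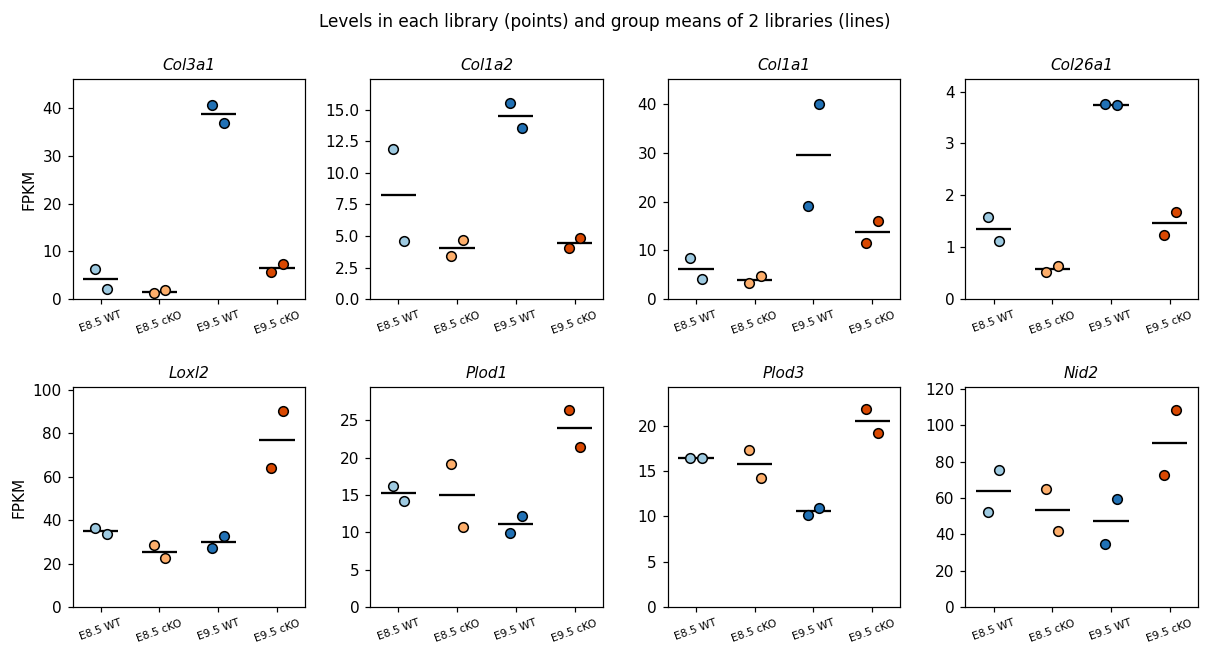
FPKM of 8 genes in each library (points) with the mean of the 2 libraries of each group (lines), on linear axes from 0. *Col3a1*, *Col1a2*, *Col1a1* and *Col26a1* were lower and *Loxl2*, *Plod1*, *Plod3* and *Nid2* higher in both E9.5 cKO libraries than in both E9.5 WT libraries.

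Basement membrane genes had small differences at E9.5, mostly upward. Of 14 genes, 12 lay above the median feature and 6 had both cKO libraries above both WT libraries, against 21.0% of all features. *Nid2*, a nidogen that bridges laminin and type IV collagen, had 34.9 and 59.7 FPKM in WT hearts against 72.5 and 108 FPKM in cKO hearts. Its log2 difference was 0.94 (SE 0.39, limma adjusted p 0.298). *Hspg2*, which encodes the proteoglycan perlecan, had 3.58 and 3.21 FPKM in WT hearts against 7.27 and 4.99 FPKM in cKO hearts, a log2 difference of 0.68 (SE 0.27, adjusted p 0.286). *Col18a1* had 71.0 and 84.8 FPKM in WT hearts against 109 and 131 FPKM in cKO hearts. These groups did not overlap, although none of the differences passed the adjusted threshold.

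The type IV collagen chains behaved less evenly. *Col4a2* had 6.65 and 6.95 FPKM in WT hearts against 15.7 and 10.2 FPKM in cKO hearts (log2 difference 0.82, SE 0.57, limma adjusted p 0.551). *Col4a1*, transcribed from the opposite strand next to it, had 33.0 and 61.9 FPKM in WT hearts against 49.1 and 63.9 FPKM in cKO hearts, with overlapping groups. The listed loci of this pair share 23 bp on chromosome 8. Among laminin chains, *Lamb1* had 12.5 and 21.5 FPKM in WT hearts against 19.4 and 22.8 FPKM in cKO hearts. *Lamb2* and *Lama5* did not overlap between groups, at 3.96 and 4.27 against 7.09 and 5.60 FPKM and at 1.04 and 0.80 against 1.68 and 1.19 FPKM. The remaining basement membrane genes (*Col4a5*, *Col4a6*, *Lama1*, *Lama4*, *Lamc1* and *Nid1*) overlapped. The median of the 14 genes was 0.34 on the log2 scale, 0.41 above that of all features. This relative median was 0.27 without E9.5 WT replicate 1, 0.28 without E9.5 cKO replicate 2, 0.66 without E9.5 WT replicate 2 and 0.093 over the 22 genes tested without a filter on low values.

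The matricellular genes *Fn1* and *Sparc* overlapped between genotypes at E9.5, with log2 differences of -0.11 and -0.40. Among the other collagens, *Col26a1* had 3.76 and 3.73 FPKM in WT hearts against 1.24 and 1.68 FPKM in cKO hearts (log2 difference -0.95, SE 0.23, limma adjusted p 0.127). *Col6a1*, a chain of the beaded-filament type VI collagen, was not overlapping either, with 2.01 and 0.91 FPKM in WT hearts against 3.21 and 2.26 FPKM in cKO hearts. *Col6a2* and *Col13a1* overlapped.

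Some lists of cell type markers also differed between genotypes at E9.5. The 8 mesenchyme and epicardium genes, which include *Tcf21*, *Upk3b* and *Pdgfra*, summed to 40.7 and 22.8 FPKM in E9.5 WT and to 10.6 and 10.1 FPKM in E9.5 cKO hearts. Both cKO libraries lay below both WT libraries for 8 of 8 of these genes, against 31.1% of all features. None of them was at 0 in every library. The 8 endothelial genes summed to 118 and 110 FPKM in WT and to 205 and 173 FPKM in cKO hearts, with 4 of 8 not overlapping upward, against 21.0% of all features, and 1 downward. The 7 parietal endoderm genes summed to 69.7 and 67.9 FPKM in WT and to 714 and 355 FPKM in cKO hearts. Most of this was *Krt19*, with 46.4 and 46.1 FPKM against 690 and 329 FPKM. Only 2 of 7 lay higher without overlap, against 21.0% of all features. The 8 cardiomyocyte genes summed to 52218 and 51580 FPKM in WT and to 70219 and 72094 FPKM in cKO hearts, with 4 of 8 not overlapping upward and 1 downward, and 4 of 8 primitive erythroid genes lay higher without overlap. In whole hearts, fewer cells of a type and less RNA per cell cannot be told apart. The part of these markers in the collagen and basement membrane differences was not tested.

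**Figure D3:**
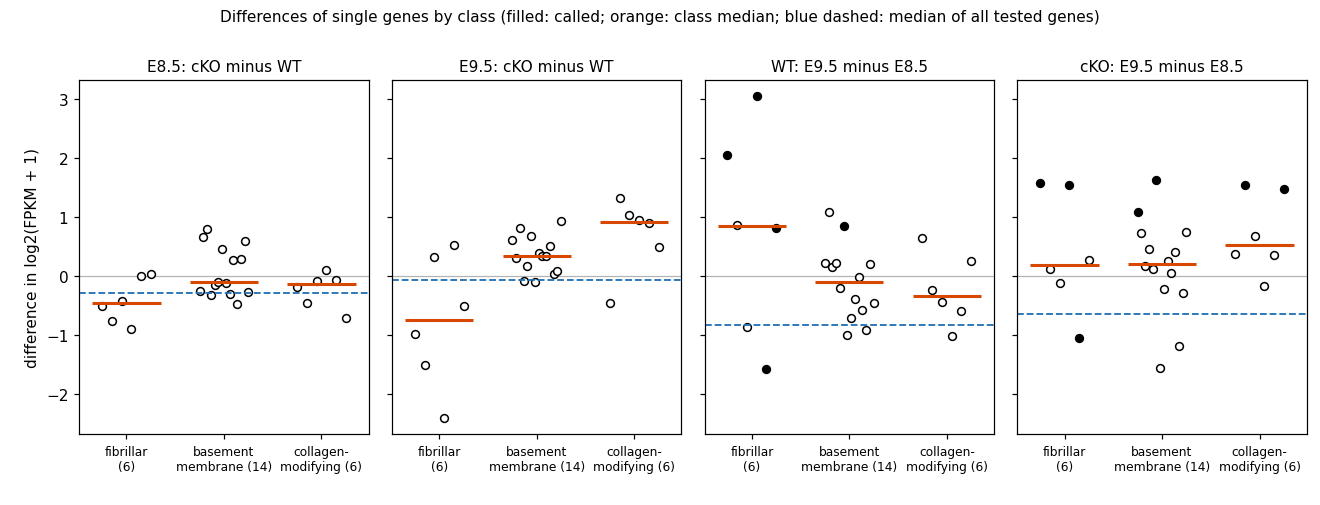
Differences in log2(FPKM + 1) for single genes (circles) of the 3 main classes in 4 comparisons. Filled circles were called, orange lines are class medians and blue dashed lines are medians of the 10018 tested features. At E9.5 the medians were -0.74 for fibrillar, 0.34 for basement membrane and 0.92 for collagen-modifying genes.

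At E8.5 the genotypes were then compared by the same test. In limma 0 of 32 genes were called, against 0.00998% of all features called higher and 0.0% called lower. By unadjusted p and fold it was also 0 in each direction, against 0.24% and 6.9% of all features. Without E8.5 cKO replicate 1 it was 7 higher and 2 lower, against 3.79% and 23.1%, and under the other alternatives 0 higher and 0 to 3 lower. No gene had both cKO libraries above both WT libraries, against 2.54% of all features, and 8 of 32 had both below, against 40.1%. The median of all features was -0.28 on the log2 scale. The fibrillar collagens had a median of -0.46, the basement membrane genes -0.11 and the collagen-modifying genes -0.13. Relative to all features the fibrillar median was -0.18, and its sign was not stable: it was 0.0775 without E8.5 WT replicate 1, 0.085 without E8.5 cKO replicate 1 and 0.094 without a filter on low values. The relative medians of the other classes were 0.18 and 0.15, and without E8.5 WT replicate 1 they were 0.052 and 0.034.

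*Col3a1* had 6.36 and 2.09 FPKM in E8.5 WT hearts against 1.23 and 1.91 FPKM in E8.5 cKO hearts (log2 difference -0.90, SE 0.40, limma adjusted p 0.590). *Serpinh1* had 362 and 532 FPKM in WT hearts against 211 and 337 FPKM in cKO hearts. *Col26a1* had 1.58 and 1.12 FPKM in WT hearts against 0.52 and 0.64 FPKM in cKO hearts. In these 3 genes the groups did not overlap, but the lowest WT value of *Col3a1* and *Serpinh1* was close to the highest cKO value. *Col6a1* (3.67 and 2.22 against 1.66 and 1.67 FPKM), *Lamb2* (5.80 and 7.54 against 5.28 and 3.81 FPKM) and *Loxl2* (36.4 and 33.9 against 28.5 and 22.7 FPKM) were likewise lower without overlap. The other 2 were *Col4a5* and *Lama5*.

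The E8.5 cKO libraries differed from each other in many of these genes. Between them 15 of 32 genes (46.9%) differed by at least 1.5-fold, against 38.5% of all features, while 7 of 32 did so between the E8.5 genotype means, against 15.9%. Between replicates it was 8 genes in E8.5 WT, 10 in E9.5 WT and 3 in E9.5 cKO hearts, against 13.6%, 19.6% and 16.5% of all features. Basement membrane genes were 8 of the 15, and they make up 14 of the 32 tested genes. In E8.5 cKO replicates 1 and 2, *Col4a1* had 19.0 and 57.7 FPKM, *Col4a2* 5.13 and 23.2 FPKM, and *Nid1* 6.10 and 16.8 FPKM. *Lama1*, the laminin α chain of early embryonic basement membranes, had 1.03 and 9.22 FPKM. *Lamc1* had 3.78 and 12.8 FPKM and *Lamb1* had 14.025 and 28.6 FPKM. *Lama4* and *Nid2* went the other way, with 14.3 and 7.13 FPKM and with 65.1 and 41.8 FPKM. The E8.5 WT libraries lay at 19.8 and 21.6 FPKM for *Col4a1*, near replicate 1, and at 3.13 and 1.66 FPKM for *Lama1*, between the replicates.

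The same library was the highest for decidual and trophoblast markers. The 8 trophoblast genes summed to 1071 FPKM in it, against 2.32 FPKM in E8.5 cKO replicate 1 and 45.1 and 127 FPKM in E8.5 WT, and *Ctsq* of that list was at 0 in every library. *Prl8a2* made up most of the decidual sum, with 5104 FPKM in this library. Of the same list *Prl3c1*, *Hoxa10*, *Pgr* and *Wnt4* were also highest in it, but by less, and *Hoxa11*, *Il11ra1* and *Cebpb* were not. The 7 parietal endoderm genes summed to 229 FPKM against 70.8 FPKM in replicate 1 and 178 and 109 FPKM in WT. Their part in the basement membrane values was not tested. Without this library 0 genes were called at E8.5 and 2 were lower by unadjusted p and fold, against 7.56% of all features. The relative medians at E8.5 were then -0.42 for fibrillar, 0.075 for basement membrane and -0.08 for collagen-modifying genes, against -0.18, 0.18 and 0.15 with it.

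**Figure D4:**
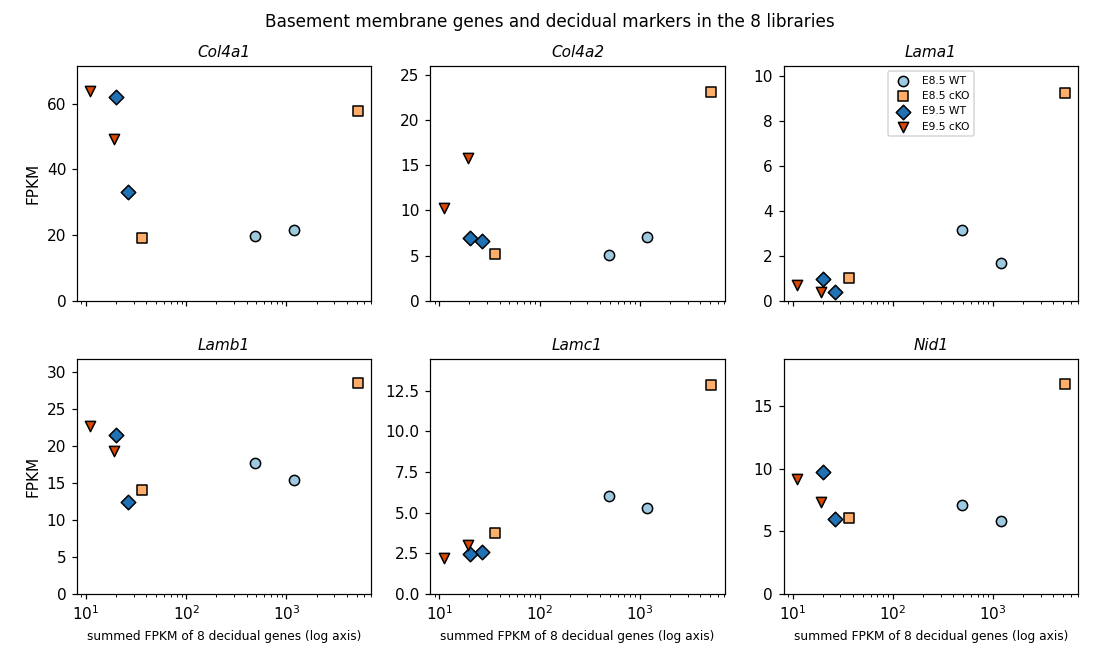
FPKM of 6 basement membrane genes (vertical axes, from 0) against the summed FPKM of 8 decidual stroma genes (log axis) in the 8 libraries. The 6 were at least 1.5-fold higher in E8.5 cKO replicate 2 than in replicate 1, and were chosen after their values were seen. *Lama4* and *Nid2*, lower there by at least the same fold, are not shown. E8.5 cKO replicate 2, at 5174 decidual FPKM, was highest for *Col4a2*, *Lama1*, *Lamb1*, *Lamc1* and *Nid1*, while *Col4a1*, at 57.7 FPKM in it, was higher in the E9.5 libraries with 20.01 and 11.1 decidual FPKM, at 61.9 and 63.9 FPKM.

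The 2 stages were next compared within control hearts, which describes the matrix as the heart tube grows. The stage and genotype comparisons share their libraries and are not independent. Type I α1, type III and type V α2 collagen rose, while the median feature of the table was lower at E9.5. In limma 6 of 32 genes (18.8%) were called higher, against 1.4% of all features, and 1 (3.12%) was called lower, against 46.7%. The median of all features was -0.84 on the log2 scale, and the share of calls that were higher among all features went from 2.90% as deposited to 82.3% with median-ratio scaling. The genes that rose were *Col3a1*, *Col1a1*, *Col5a2*, *Col26a1*, *Hspg2* and *Sparc*. The split of these 32 genes was 7 higher and 0 lower with median-ratio scaling and 5 higher and 0 lower with quantile normalization. Over all 10018 features it was 321 higher and 69 lower with median-ratio scaling, and 88 higher and 27 lower with quantile normalization.

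*Col3a1* rose the most, from 6.36 and 2.09 FPKM to 40.6 and 36.8 FPKM, a log2 difference of 3.06 (SE 0.40, limma adjusted p 0.00940). *Col1a1* rose from 8.38 and 4.11 FPKM to 19.0 and 39.96 FPKM, a log2 difference of 2.05 (SE 0.43, adjusted p 0.0145). *Sparc* rose from 173 and 120 FPKM to 332 and 432 FPKM, a log2 difference of 1.39 (SE 0.44, adjusted p 0.0341). In all 3 the stages did not overlap. *Sparc* was not called with quantile normalization, with long-locus scaling, without a filter or without any single WT library. *Col26a1* rose by 1.02, *Hspg2* by 0.86 and *Col5a2* by 0.82 on the log2 scale, with adjusted p-values of 0.0155, 0.0355 and 0.0312. *Hspg2* went from 1.03 and 1.91 FPKM to 3.58 and 3.21 FPKM, and *Col26a1* from 1.58 and 1.12 FPKM to 3.76 and 3.73 FPKM. *Col5a2* went from 1.65 and 1.78 FPKM to 4.31 and 3.34 FPKM.

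*Col1a2* had 11.9 and 4.64 FPKM at the earlier stage and 15.5 and 13.5 FPKM at the later one, a log2 difference of 0.86 that was not called (SE 0.38, limma adjusted p 0.0889). The per-length ratio of *Col3a1* to *Col1a1* was 0.76 and 0.51 in E8.5 WT and 2.13 and 0.92 in E9.5 WT. In cKO hearts it was 0.38 and 0.41 at E8.5 and 0.50 and 0.46 at E9.5. *Col5a1* fell, from 4.15 and 5.76 FPKM to 0.99 and 0.96 FPKM (log2 difference -1.58, SE 0.26, adjusted p 0.0117). Relative to the median feature its difference was -0.75, and it was not called with median-ratio scaling or quantile normalization.

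The basement membrane genes had a median of -0.11 between the WT stages, 0.73 above that of all features, and the collagen-modifying genes one of -0.33. *Col4a1* had 19.8 and 21.6 FPKM in the younger hearts and 33.0 and 61.9 FPKM at E9.5 (limma adjusted p 0.103). *Lamc1* had 6.02 and 5.30 FPKM in the younger hearts and 2.56 and 2.49 FPKM at E9.5 (adjusted p 0.113). *Plod1* and *Plod3* were not called, and neither were *Loxl2* and *Serpinh1*. Leaving out either E8.5 WT library left 1 gene called higher, and *Col3a1* was no longer called without E9.5 WT replicate 1, which left 0. Without E9.5 WT replicate 2, 2 genes were called higher.

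In cKO hearts 7 of 32 genes (21.9%) were called higher at the later stage, against 2.05% of all features, and 1 (3.12%) lower, against 28.5%. With median-ratio scaling or quantile normalization it was 10 higher and 0 lower, while the share of calls that were higher among all features went from 6.69% to 83.9% and 84.04%. Over all 10018 features the calls were 400 higher and 77 lower with median-ratio scaling, and 258 higher and 49 lower with quantile normalization. *Loxl2* rose from 28.5 and 22.7 FPKM to 64.0 and 90.4 FPKM, a log2 difference of 1.54 (SE 0.28, limma adjusted p 0.0161). *Serpinh1* rose from 211 and 337 FPKM to 667 and 830 FPKM, a log2 difference of 1.48 (SE 0.32, adjusted p 0.0196). *Hspg2* rose from 1.21 and 1.31 FPKM to 7.27 and 4.99 FPKM, a log2 difference of 1.64 (SE 0.27, adjusted p 0.0160). The stages did not overlap in any of the 3.

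*Col18a1* rose by 1.10 and *Fn1* by 1.21 on the log2 scale, with limma adjusted p-values of 0.0286 and 0.0493. *Fn1* lost its call in 11 of 17 alternatives, the replicate block, long-locus scaling and the 2-group fit among them, and *Col18a1* in 7. *Col18a1* had 67.0 and 45.7 FPKM in the younger hearts and 109 and 131 FPKM at E9.5. *Fn1* had 40.2 and 20.7 FPKM in the younger hearts and 60.8 and 75.9 FPKM at E9.5. *Col1a1* rose by 1.57 and *Col3a1* by 1.55, from 3.23 and 4.67 FPKM to 11.5 and 15.9 FPKM and from 1.23 and 1.91 FPKM to 5.70 and 7.34 FPKM. *Col5a1* was again called lower, from 4.70 and 5.11 FPKM to 2.34 and 1.44 FPKM (log2 difference -1.05, adjusted p 0.0252). Without E9.5 cKO replicate 1, or without E9.5 cKO replicate 2, 0 genes were called higher. Without the divergent E8.5 cKO replicate 2, 6 genes were called higher, *Col18a1*, *Fn1* and *Col1a1* were not among them, and *Col5a1* was not called lower.

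The difference between the genotype effects at E9.5 and E8.5 was tested as an interaction. In limma 0 of 32 genes were called, against 0.0299% of all features higher and 0.00998% lower. By unadjusted p and fold, 6 of 32 (18.8%) had a more positive effect at E9.5, against 5.69% of all features, and 1 (3.12%) a more negative one, against 1.49%. The count of more positive effects depended on the scaling, with 2 under quantile normalization, against 3.5% of all features, and 8 under long-locus total scaling, against 7.4%. The 6 were *Loxl2*, *Plod1*, *Plod3*, *Serpinh1*, *Lamb2* and *Col6a1*, and the 1 was *Col3a1*. *Loxl2* had the largest, at 1.78 on the log2 scale (SE 0.40, limma adjusted p 0.365). The class medians of this difference were -0.51 for fibrillar, 0.28 for basement membrane and 1.04 for collagen-modifying genes, against 0.18 for all features. Without E8.5 cKO replicate 2 the counts by unadjusted p were 4 and 0, against 6.0% and 1.3% of all features, and the medians were -0.30, 0.58 and 1.12 against 0.14 for all features. The count of more positive effects was 2 without E8.5 WT replicate 2 or E9.5 WT replicate 1, 3 without E9.5 cKO replicate 1 and 4 without E8.5 WT replicate 1, against shares of all features of 4.07%, 4.16%, 2.59% and 3.27% in that order. Without E8.5 cKO replicate 1 there were 6 more positive and 6 more negative effects, against 17.9% and 5.28% of all features.

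Genes outside the 69 that act on the same proteins were counted by list. Of 12 tested genes of proline and lysine modification and folding, 1 was called higher in E9.5 cKO hearts and 0 lower. Of all features 0.17% were called higher and 0.00998% lower. Without overlap 5 of the 12 were higher and 1 lower, against 21.0% and 31.1% of all features. The called gene was *P4ha2*, a catalytic subunit of prolyl 4-hydroxylase, with 14.9 and 17.5 FPKM in WT hearts against 124 and 100 FPKM in cKO hearts (log2 difference 2.72, SE 0.25, limma adjusted p 0.0102). At E8.5 all 4 libraries lay between 29.4 and 30.6 FPKM. *P4ha1* had 16.4 and 17.0 FPKM in WT hearts against 21.3 and 30.5 FPKM in cKO hearts at E9.5, a log2 difference of 0.58 that was not called. The median of the 12 was 0.40 at E9.5, against -0.07 for all features.

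Of 14 tested matrix receptors, 0 were called at E9.5 and 3 were higher by unadjusted p and fold, against 5.08% of all features. Without overlap 6 were higher and 2 lower, against 21.0% and 31.1% of all features. *Itga5*, the fibronectin receptor chain, had 11.8 and 13.2 FPKM in WT hearts against 43.4 and 35.5 FPKM in cKO hearts (log2 difference 1.57, SE 0.28, limma adjusted p 0.0873). *Itgb3*, a chain of the vitronectin receptor, had 1.201 and 1.32 FPKM in WT hearts against 6.04 and 5.13 FPKM in cKO hearts (log2 difference 1.54, adjusted p 0.0648). *Ddr1*, a collagen receptor kinase, had 16.0 and 15.9 FPKM in WT hearts against 37.4 and 26.1 FPKM in cKO hearts. None of these 3 overlapped between the genotypes.

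Of 7 genes of secretion and propeptide processing, 0 were called between genotypes at E9.5. *Pcolce*, which enhances the removal of the collagen C-propeptide, had 32.6 and 43.1 FPKM in WT hearts against 23.0 and 19.7 FPKM in cKO hearts at E9.5. It was called higher at E9.5 than at E8.5 in both genotypes, with log2 differences of 2.39 in WT and 2.26 in cKO hearts (limma adjusted p 0.00676 and 0.0148). Of 11 proteases and inhibitors 0 were called at E9.5, and by unadjusted p and fold 2 were higher and 1 was lower, against 5.08% and 9.99% of all features. *Timp3* had 4.73 and 5.32 FPKM in WT hearts against 8.83 and 9.94 FPKM in cKO hearts, and *Adamts1* had 5.57 and 5.73 FPKM against 3.17 and 3.66 FPKM. *Mmp15* was at 2.54 and 1.86 FPKM in WT hearts against 7.67 and 4.34 FPKM in cKO hearts. Of 21 other matrix proteins 0 were called between genotypes, and at E9.5 1 was higher and 3 were lower by unadjusted p and fold, against the same 5.08% and 9.99%, with a median of -0.02. The 1 was *Fbln1*. *Fbln1*, a fibulin, had 93.2 and 63.3 FPKM in WT hearts against 176 and 196 FPKM in cKO hearts. At E8.5 no gene of these 5 lists was called.

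Between stages the lists were counted beside the 1.4% of all features called higher and 46.7% called lower in WT hearts, and the 2.05% and 28.5% in cKO hearts. The list calls in cKO hearts include the divergent cKO library of the earlier stage and were not repeated without it. In WT hearts 5 of the 12 modification genes were called lower and 0 higher, a share near that of all features. They were *P3h1* (-1.53 on the log2 scale), *P4ha1* (-1.25), *Fkbp14* (-1.10), *Tmem38b* (-1.09) and *P4ha2* (-0.87). In cKO hearts *P4ha2* was called higher (1.88), and *Tmem38b* (-1.004) and *Fkbp14* (-0.92) lower. Of the secretion genes, *Creb3l2* was called higher (1.06) and *Sec23a* lower (-1.24) in cKO hearts, beside *Pcolce*.

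Of the 14 receptors, 6 were called lower and 0 higher in WT hearts, again near the share of all features. They were *Itgb3* (-1.83), *Itga7* (-1.69), *Itgb5* (-1.37), *Itgav* (-1.04), *Itga3* (-1.001) and *Sdc2* (-0.95). In cKO hearts *Ddr1* (2.09) and *Itga5* (1.51) were called higher, and *Itgb1* (-1.29), *Itgb5* (-0.999), *Itgav* (-0.99) and *Itga7* (-0.93) lower. Of the 11 proteases and inhibitors, *Adamts1* was called higher (0.81) in WT hearts, and *Mmp9* (-1.49), *Timp2* (-1.003), *Adamts9* (-0.93), *Mmp14* (-0.90) and *Mmp15* (-0.84) lower. The 5 called lower were again near the share of all features. Relative to the median feature they ran from -0.66 for *Mmp9* to -0.0004 for *Mmp15*. In cKO hearts *Timp3* was called higher (1.22) and *Mmp14* lower (-1.07). Of the 21 other matrix proteins, *Tnc* (1.74), *Fbln2* (1.58), *Thbs1* (1.48) and *Tgfbi* (1.33) were called higher in WT hearts, and *Agrn* (-1.03) and *Fbn2* (-0.91) lower. In cKO hearts *Thbs1* (1.90), *Tgfbi* (1.43) and *Fbln1* (1.25) were called higher and 0 lower.

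The E9.5 differences were also set beside the miRNA seed matches shown above. Genes of the 31 with a miR-29 match had a median log2 difference of 0.30 between cKO and WT hearts, and those without one had 0.36. Over all tested features the medians were -0.07 with and -0.07 without a match. *Col3a1*, *Col1a1* and *Col5a2* each held a match and were lower in cKO hearts in both libraries. *Loxl2* and *Plod1* held a match and were higher, as were *Col5a1*, with 4 matches, and *Col4a2*, with 2, all without overlap. The other 6 genes with a match, *Col2a1*, *Col4a1*, *Col4a5*, *Col4a6*, *Col6a2* and *Lamc1*, overlapped between genotypes. *Col1a2*, with 881 nt of 3′ UTR and no match, was lower like *Col3a1*.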

How the data were processed

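The authors deposited 1 table of FPKM values, with 24930 entries and a column for each of the 8 libraries. Per the study's methods, RNA was amplified by Smart-seq2, sequenced and mapped with BWA. The submitters' processing notes name mm9, but 91.7% of the tested genes found in RefSeq began no more than 1000 bp from their GRCm38 position, so coordinates are the table's, on GRCm38. The program that calculated the FPKM was not given in the sources used here. FPKM are relative to the library total, so abundant transcripts move all others. All 8 columns of per-sample values were used (0 were left out), and groups came from the labels. A symbol listed more than once was represented by its most abundant entry, and 0 of the 69 genes were repeated.

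Features with a mean of at least 1 FPKM were tested as log2(FPKM + 1) using limma (3.58.1, R 4.3.3), with the 4 groups fitted together and a mean-variance trend. This understates differences of low genes. Tests were two-sided, adjusted by Benjamini-Hochberg over 10018 features, and tested on simulated data. Libraries are biological replicates per the labels. All 69 genes could be named. Values per library were given for called genes, for the 4 most abundant of each main class and, per genotype comparison and direction, for up to 6 non-overlapping genes with the largest difference; outside the 69, values of called genes and of up to 3 a list were given. The basement membrane genes compared between the E8.5 cKO replicates were chosen after their values were seen. The genes, lists and tests were chosen with earlier results of these data known. Reads cannot be told apart on overlapping genes, since strand use was not stated. Alternatives were other scalings, filters and pseudocounts, no trend, 2-group fits, a replicate block and leaving out each library. Same-numbered libraries did not deviate together (correlations -0.12 to 0.19), so the block was an alternative only. FPKM carry no absolute depth. Depth relative to E8.5 WT replicate 1 was estimated from the commonest ratio of values below 0.3 FPKM, in bins of 0.001 and, chosen after seeing how few genes these held, of 0.01 on the log2 scale. Both gave 1 to 1.45, but the commonest bin of 0.01 exceeded the next by as little as 91 to 89 genes of 2362, so the estimate is rough and no result uses it. The seed match of another miRNA is not reported here.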

Additional observations from a re-analysis of the deposited data

Results flagged for a closer look

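The genotype effect differed between E9.5 and E8.5 at an unadjusted limma p below 0.05 for 7 of the 32 genes. This is the test of the difference itself, and all 7 were also at least 1.5-fold. At both limits 5.69% of all features had a more positive effect and 1.49% a more negative one. The median of all features was 0.18. On the log2 scale the effect at E9.5 less that at E8.5 was 1.78 for *Loxl2*, 1.21 for *Serpinh1*, 1.17 for *Col6a1*, 1.12 for *Plod1*, 0.99 for *Lamb2*, 0.95 for *Plod3* and -1.50 for *Col3a1*. The limma adjusted p-values ran from 0.365 to 0.693, so none passed over all features. Without E8.5 cKO replicate 2, *Loxl2* (1.62), *Serpinh1* (1.55) and *Plod3* (0.82) remained below an unadjusted p of 0.05. The other 4 kept their signs, at 1.17 for *Col6a1*, 0.79 for *Lamb2*, 0.73 for *Plod1* and -1.31 for *Col3a1*, with unadjusted p from 0.0533 to 0.0818 on 1 library fewer. Of these 7, *Serpinh1*, *Lamb2*, *Col6a1* and *Loxl2* had both cKO libraries below WT at E8.5 and both above at E9.5. The first held for 40.1% of all features and the second for 21.0%. Relative to the median feature their E8.5 differences were -0.43, -0.19, -0.26 and -0.17 in that order.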

How the results depend on the processing

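Counts are of the 32 tested genes and medians are relative to all features. Between genotypes 0 genes were called under every alternative except leaving out a library, which gave 0 to 1 lower at E9.5 (*Col3a1*, without E8.5 WT replicate 1 or 2). Between the WT stages the 6 genes called higher became 3 without a filter and 3 at 5 FPKM, and 0 to 7 over libraries left out. The 1 called lower became 5 with long-locus scaling, 5 with only the 2 groups fitted, 2 without a filter, 0 at 5 FPKM and 0 with median-ratio scaling or quantile normalization, and 0 to 5 over libraries left out. Between the cKO stages the 7 called higher became 10 with median-ratio scaling or quantile normalization, 8 with a pseudocount of 0.1, 5 with only the 2 groups, 3 without a filter and 0 to 6 over libraries left out. The 1 called lower became 0 with median-ratio scaling, quantile normalization, no filter, the 5 FPKM filter or only the 2 groups, and 0 to 4 over libraries left out.

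Without a filter the class medians moved, over more genes, to -0.079 (fibrillar), 0.093 (basement membrane) and 0.50 (collagen-modifying) at E9.5. Between WT stages they became 0.37 (fibrillar), 0.36 (basement membrane) and -0.066 (collagen-modifying), and between cKO stages 0.18, 0.26 and 0.55. At 5 FPKM the fibrillar median was -1.08 at E9.5, 2.30 between WT stages and 1.49 between cKO stages, and the collagen-modifying one 1.74 between cKO stages. A pseudocount of 0.1 gave 2.06 for fibrillar genes between WT stages and 1.40 for collagen-modifying genes between cKO stages. Leaving out libraries, the collagen-modifying median at E8.5 ran from -0.077 to 0.19. Beyond the changes in genes and libraries tested, the cause was not tested. No called difference changed direction. Of all 32 genes, 11 changed sign under at least 1 alternative at E9.5, all with differences of at most 0.39 in size, as did 21 at E8.5, 17 between WT stages, 10 between cKO stages and 10 in the difference between the genotype effects.

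A replicate block left 6 higher and 1 lower between WT stages, 6 and 1 between cKO stages (*Fn1* was lost), and 0 between genotypes. Where leaving out a library left 1 in a group, that library was assumed to vary like the others. The numbers did not pair the libraries. Crossing the WT numbers, chosen after seeing the data, gave 6 higher and 1 lower. Depth was unknown and each group had 2 libraries, so differences of low genes had little precision.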
